A study of Drosophila melanogaster with 12 samples.

Results

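Saft (CG11247) was mapped by ChIP-seq in 2 clones of Drosophila melanogaster S2 cells, clone 9C and clone 4H, and the peak lists of clone 9C are compared here with those of clone 4H. The comparison used 4 of the 12 samples of the series, namely the 2 anti-FLAG ChIP libraries of clone 9C and the 2 of clone 4H. Both clones carried OsTir1 and a FLAG-AID tag on both copies of the endogenous Saft gene, and the cells were left untreated, so that the tagged protein was not depleted. Each group is 1 clone, so a difference between clones cannot be told apart from a difference between any other 2 sets of cultures. Peaks of the 4 lists on the main chromosome arms (2L, 2R, 3L, 3R, 4 and X) that overlapped by 1 bp or more were merged, which gave 1971 regions. Of these, 788 held a peak in all 4 lists.

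Saft is labelled a transcription factor, in a series on silencers, which are DNA elements that lower transcription. S2 is a line of embryonic origin. OsTir1 is a rice F-box protein that, once auxin is added, marks proteins with an AID (auxin-inducible degron) tag for destruction, so such clones are made to remove a protein at will. In ChIP-seq, DNA bound by the tagged protein is pulled down and sequenced, a peak caller marks stretches with more reads than a background estimate, and the summit is the position with the most reads.

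Strong Saft sites had a peak in every list of both clones, and the lists parted among weak sites. The authors' caller gives each peak a −log10 q, in which a larger number is a clearer peak. Where the highest −log10 q of a region was 20 or more, all 86 regions from 20 to 50 and all 426 regions from 50 up held a peak in every list. Below 5, 7 of 816 regions did (0.858%, 95% Wilson interval 0.416 to 1.76). Between 5 and 10 it was 146 of 491, and between 10 and 20 it was 123 of 152. These bounds were chosen after the values had been seen, and a weak region has to pass the caller's limit 4 times to be counted.

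Of the 3 shared regions with the best mean rank of −log10 q within the lists, chrX:14772715-14773770 (dm3) ranked first and had 278 and 278 reads at the summit in clone 9C and 276 and 278 in clone 4H. Its summits lay at positions 14773193 and 14773192 in clone 9C and at 14773193 and 14773193 in clone 4H. The 4 libraries thus placed this site within 1 bp of each other. At chrX:13212172-13213132, which had the highest mean −log10 q, summit reads were 288 and 287 in clone 9C and 282 and 286 in clone 4H. At chrX:16510837-16513089 the summits had 269 and 270 reads in clone 9C and 266 and 269 in clone 4H, and here 4H replicate 1 split the site into 3 peaks, both 9C libraries into 2, and 4H replicate 2 into 1. These reads were recovered from the authors' fold and p, and the highest summit of any of the 4 lists held 287 to 290 of them, so strong sites cannot differ much on this scale.

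The clone 9C lists held 1383 and 1507 peaks on the main arms, and the clone 4H lists 1207 and 1262. Both 9C lists were longer than both 4H lists. The ratio of the geometric means was 1.17 (exact permutation test over libraries, two-sided, p = 0.333, n = 2 against 2), and 0.333 is the smallest p that this design allows. Peaks covered 848 and 896 kb in clone 9C and 667 and 831 kb in clone 4H. No source used here gives the read depth, so list length and depth cannot be told apart.

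A peak in both 9C lists and in neither 4H list was found in 118 regions (5.99% of the 1971 merged regions, 95% Wilson interval 5.02 to 7.12). The reverse, a peak in both 4H lists and in neither 9C list, was found in 36 regions (1.83%, 1.32 to 2.52). As shares of each clone's own set, 118 of 1052 regions in both 9C lists (11.2%) and 36 of 871 regions in both 4H lists (4.13%) lacked a peak in the other clone. More regions were in a single list, a looser condition: 249 in 9C replicate 2 alone, 158 in 9C replicate 1 alone, 151 in 4H replicate 2 alone and 134 in 4H replicate 1 alone. Regions in exactly 2 lists, 1 of each clone, are the like set. There were 54 for 9C replicate 2 with 4H replicate 2 and 33 for 9C replicate 2 with 4H replicate 1. For 9C replicate 1 there were 29 with 4H replicate 2 and 28 with 4H replicate 1. The 118 9C-only regions outnumbered each of these patterns, and the 36 4H-only regions lay among them. When 1 list stood for its clone, the 9C-only and 4H-only counts were 381 and 63 without 9C replicate 1, and 290 and 56 without 9C replicate 2. They were 180 and 187 without 4H replicate 1, and 211 and 171 without 4H replicate 2. With either 4H list left out the counts of the 2 clones were thus close, and a single list per clone adds its own weak peaks. When peaks below a −log10 q of 10 were left out, 14 regions were 9C-only and 2 were 4H-only. With the 1000 strongest peaks of each list, so that all lists had the same length, 48 regions were 9C-only and 29 were 4H-only.

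**Figure D1:**
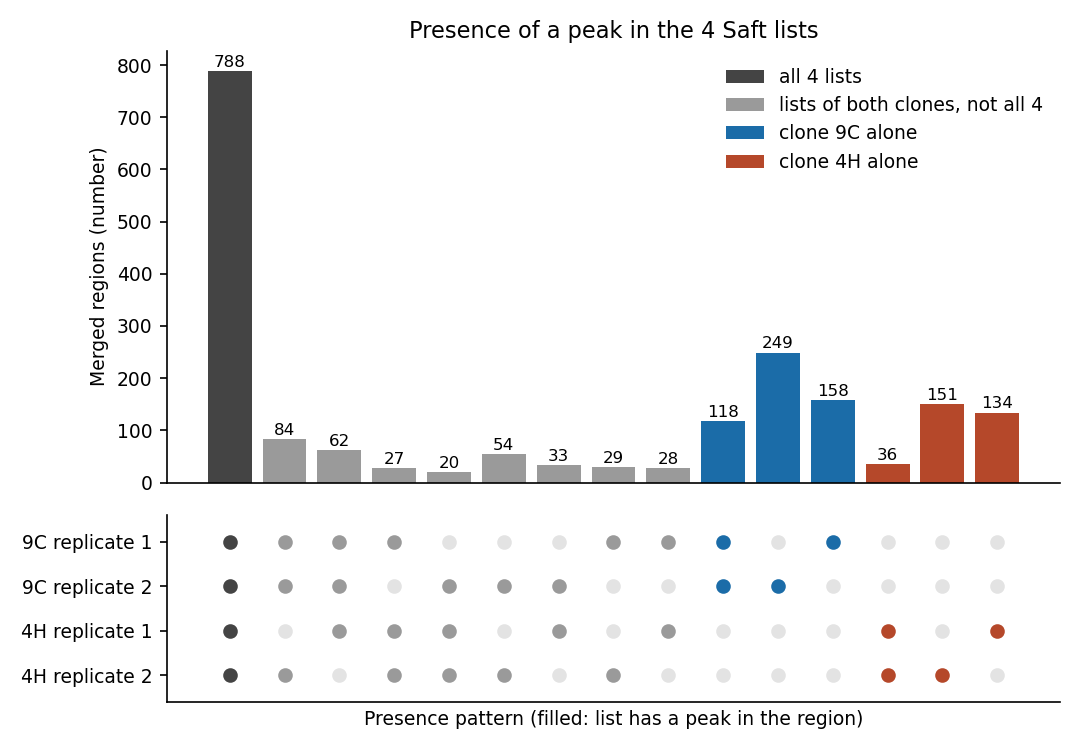
Number of merged regions on the main arms (vertical axis) for each pattern of presence in the 4 Saft lists (filled circles below each bar). The 788 regions of all 4 lists form the tallest bar, and every pattern of a single list outnumbers the 118 regions of both 9C lists alone and the 36 of both 4H lists alone. The patterns of exactly 2 lists, 1 of each clone, hold 28 to 54 regions.

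Sharing was measured as the Jaccard index, the number of regions in both lists over the number in either. It was 0.638 between the 9C replicates and 0.602 between the 4H replicates. Between clones it was 0.597 and 0.597 for 9C replicate 1, and 0.553 and 0.573 for 9C replicate 2, against 4H replicates 1 and 2 in that order. Every pair from different clones shared less than either pair of replicates, but 0.602 and 0.597 lay close together. The mean of 1 minus the index was 0.0401 higher between clones than within them (exact permutation test over libraries, one-sided, p = 0.333, the smallest p allowed, n = 2 against 2). The 2 replicates of Phaser clone 8D had an index of 0.683.

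Regions of 1 clone were weak and narrow, and so were regions in 1 list of each clone. The median fold enrichment, the authors' ratio of ChIP over background at the summit, was 2.90 in 9C-only regions and 2.78 in 4H-only regions, against 7.92 in regions of all 4 lists. Their median width was 229 bp in 9C-only and 184 bp in 4H-only regions, against 702.5 bp in regions of all 4 lists. Both sets had a median of 64 summit reads, and the regions of all 4 lists had 199. The 144 regions in 1 list of each clone had a median fold of 2.94, a median width of 222.5 bp and a median of 61 summit reads. These traits were thus not particular to regions of 1 clone. Peaks of both Phaser lists overlapped 9 of the 118 9C-only regions (7.63%, 95% Wilson interval 4.06 to 13.9) and 4 of the 36 4H-only regions (11.1%, 4.41 to 25.3). In regions of all 4 lists it was 154 of 788 (19.5%, 16.9 to 22.5). In the like set, regions in 1 list of each clone, it was 12 of 144 (8.33%). In regions of a single list it was 17 of 407 for clone 9C (4.18%) and 19 of 285 for clone 4H (6.67%). A low Phaser share was thus not particular to regions of 1 clone either. The regions of all 4 lists were also wider, and the part of width in this overlap was not tested. Within 1 kb of a region of all 4 lists lay 23 of the 9C-only regions (19.5%) and 1 of the 4H-only regions (2.78%), against 90 of the regions of all 4 lists themselves (11.4%). In regions of a single list it was 76 of 407 for clone 9C (18.7%) and 68 of 285 for clone 4H (23.9%), so the order of the clones turned.

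Among 9C-only regions the clearest by mean −log10 q was chrX:16052387-16052571, with 69 and 78 summit reads and a fold of 4.65 and 4.70 in the 9C replicates. The region chrX:20219816-20220013 had 66 and 80 reads. On 2L, chr2L:10475830-10476051 had 85 and 99 reads and chr2L:7861873-7862192 had 84 and 87, and both overlapped Phaser peaks of both replicates. The region chr2R:10245449-10245900 had 81 and 98 reads, with a −log10 q of 4.43 in replicate 1 and 13.8 in replicate 2. The caller scaled the reads down before it took the fold, and background is given here in its scaled units, which are not reads. In these units the background estimate of this region was 12 in replicate 1 and 7.35 in replicate 2. The parts of reads and background in the difference in −log10 q were not tested.

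Among 4H-only regions the clearest was chrX:17767524-17767728, with 82 and 65 summit reads and a fold of 5.43 and 4.81 in the 4H replicates. The region chr2R:7747378-7747584 had 85 and 68 reads, and chr3L:19907905-19908139 had 75 and 77. The region chr3R:5535954-5536118 had 68 and 80 reads, and chr2L:14425570-14425814 had 64 and 61. None of these 5 overlapped Phaser peaks of both replicates. Arm 3L held 35 of the 118 9C-only regions (29.7%) and 15 of the 36 4H-only regions (41.7%), against 183 of the 788 regions of all 4 lists (23.2%). Of the 144 regions in 1 list of each clone it held 40 (27.8%), close to the 9C-only share. On chromosome 4, no 9C list held a peak, while 1 region was in both 4H lists and 3 were in 1 4H list. That region, chr4:1290937-1291368, picked after its values were seen, had 126 and 134 summit reads in the 4H replicates. Its background there was 22.5 and 27.0 in the caller's scaled units, and the authors' fold was 2.36 and 2.12.

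Peak width set 1 library apart more than it did the clones. Over the 788 regions of all 4 lists, with the peak of highest −log10 q standing for a list, the median width was 784.5 and 770 bp in clone 9C and 556.5 and 758 bp in clone 4H. The 9C replicates and 4H replicate 2 lay close together, and 4H replicate 1 stood below all of them. The peak of 4H replicate 1 was the narrowest in 511 regions (64.8%, 95% Wilson interval 61.4 to 68.1), and its edges lay a median of 40 to 50.5 bp inside those of each 9C list on either side. The ratio of medians, 9C over 4H, was 1.197 (exact permutation test, two-sided, p = 0.333, the smallest p allowed, n = 2 against 2). It was 1.05 without 4H replicate 1 and 1.36 without 4H replicate 2. Over all main-arm peaks of each list, the weak ones of single lists included, the median width was 330 and 323 bp in clone 9C and 336 and 351.5 bp in clone 4H, so both 9C lists were then the lower.

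Both 9C peaks were wider than both 4H peaks in 243 regions (30.8%) and narrower than both in 40 (5.08%). Set against 4H replicate 2 alone, both 9C peaks were wider in 296 regions and narrower in 280. Set against 4H replicate 1 alone, they were wider in 575 and narrower in 67. In limma, with Benjamini-Hochberg adjustment over the 788 regions, 0 regions passed an adjusted p of 0.05 as wider in 9C (0%) and 0 as narrower (0%), and 42 and 5 did at an unadjusted p under 0.05. Over these 788 regions the median of summit reads was also lowest in 4H replicate 1, with 215 and 220 in clone 9C and 175 and 193 in clone 4H. In the weakest sixth of the regions it was 68 and 76 in clone 9C and 67 and 62 in clone 4H, and over all main-arm peaks 82 and 84 in clone 9C and 87 and 77 in clone 4H, so 4H replicate 1 was not the lowest there. Their part in the widths was not tested.

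**Figure D2:**
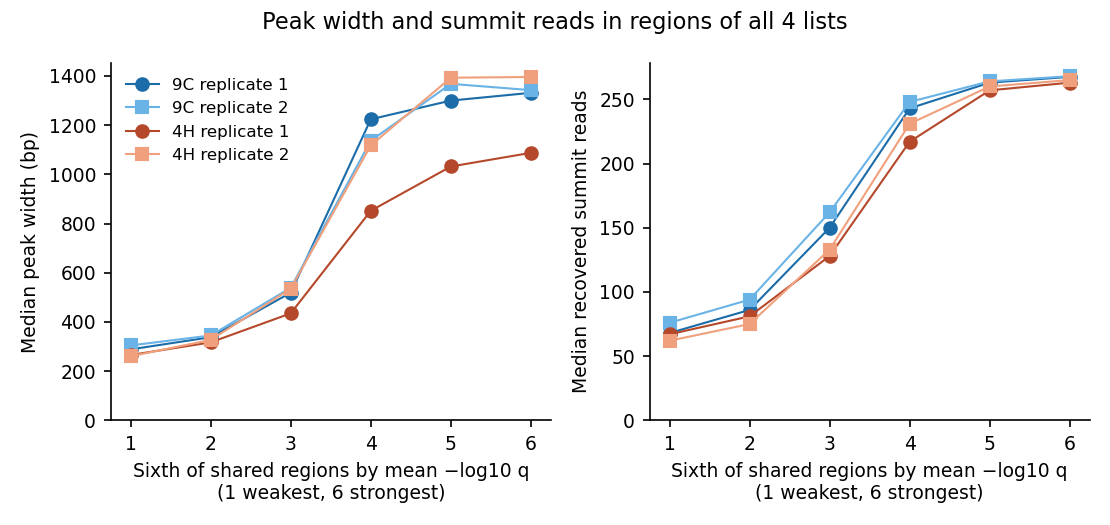
Median peak width in bp (left) and median recovered summit reads (right) of each library, in sixths of the 788 shared regions ranked by mean −log10 q. From the third sixth up, 4H replicate 1 lies below the other 3 libraries in width, and in the fifth sixth the medians are 1300 and 1368 bp in clone 9C and 1032 and 1393 bp in clone 4H.

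Among the regions with the smallest p for a wider peak in 9C, none of which passed, chr2R:4914612-4916310 had widths of 1687 and 1629 bp in clone 9C and 882 and 883 bp in clone 4H. The log2 difference was 0.91 (SE 0.17, limma adjusted p = 0.702). Here 4H replicate 2 had 2 peaks where each other list had 1. At chr2R:18913597-18914816 the widths were 987 and 1220 bp in clone 9C and 290 and 486 bp in clone 4H. Its summits lay within 16 bp of each other, and its summit reads were 264 and 260 in clone 9C and 147 and 183 in clone 4H. At chr3L:8498803-8500399 the widths were 968 and 1197 bp in clone 9C and 371 and 574 bp in clone 4H. There 9C replicate 1 had 3 peaks, 9C replicate 2 had 1 and each 4H list had 2. These widths are of the peak of highest −log10 q alone, so a split site can look narrow. The clones did not overlap in width at any of these 3 sites, but the sites were picked by their p for width. Both 9C peaks were wider than both 4H peaks in 243 of the 788 regions (30.8%). At chr3L:20310177-20310536 the widths were 330 and 352 bp in clone 9C and 204 and 168 bp in clone 4H.

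In the other direction, chr2R:18798980-18799733 had widths of 279 and 404 bp in clone 9C and 688 and 748 bp in clone 4H (log2 difference −1.10, SE 0.24, limma adjusted p = 0.702). Here 9C replicate 2 had 2 peaks where each other list had 1, so its 404 bp is the width of 1 of 2 peaks. The summit reads of this region were alike, with 70 and 82 in clone 9C and 78 and 84 in clone 4H. At chr3L:1366617-1367118 the widths were 167 and 211 bp in clone 9C and 283 and 441 bp in clone 4H. At chr2R:20468627-20469801 they were 878 and 718 bp in clone 9C and 1175 and 1065 bp in clone 4H. At this last site the summit reads went the other way, with 233 and 237 in clone 9C and 187 and 218 in clone 4H. At chr2R:11128960-11129231 the widths were 188 and 154 bp in clone 9C and 230 and 262 bp in clone 4H.

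Summits stayed in place between clones to about the distance that separated replicates. The median distance between summits of a shared region was 10, 11, 11 and 14 bp in the 4 pairs from different clones, and 10 bp between the 9C replicates and 11 bp between the 4H replicates. Taken within each region, the mean distance between clones minus the mean distance within clones had a median of −0.5 bp (exact permutation test, one-sided, p = 1, n = 2 against 2). This is not the difference of the medians, which over all regions were 15.5 bp for the mean between clones and 14.5 bp for the mean within them. In the weakest sixth of regions the distance was 51.25 bp between clones and 52.75 bp within them, and in the strongest sixth it was 6.75 bp and 5 bp.

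**Figure D3:**
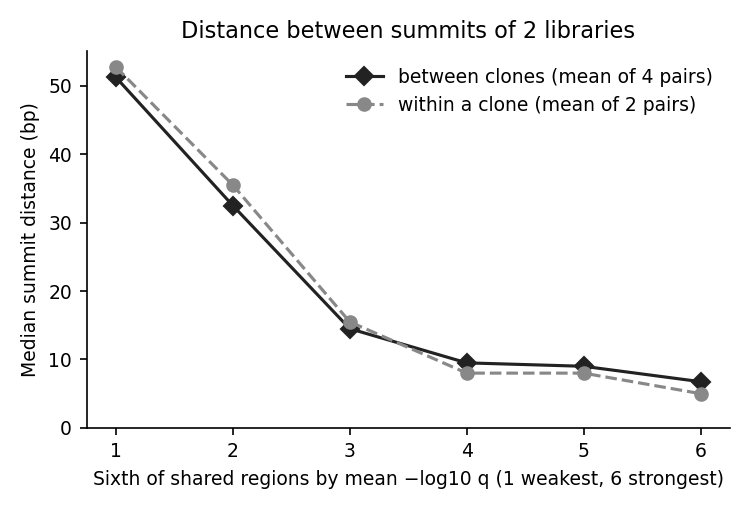
Median distance in bp between the summits of 2 libraries, averaged over the 4 pairs from different clones (diamonds) and over the 2 replicate pairs (circles), in sixths of the 788 shared regions by mean −log10 q. Both lines fall together, to 6.75 bp between clones and 5 bp within clones in the strongest sixth.

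In limma on summit position, 2 of the 788 regions passed an adjusted p of 0.05 (0.254%), at an adjusted p of 0.0266 each. At chr2R:19673840-19675651 the summits lay at 19674922 and 19674923 in clone 9C and at 19674812 and 19674811 in clone 4H, a difference of 111 bp. At chr2R:4622651-4623641 they lay at 4623057 and 4623057 in clone 9C and at 4623168 and 4623166 in clone 4H, a difference of −110 bp. In both regions the replicates lay within 2 bp of each other and the clones did not overlap. Neither call held without 9C replicate 2, without 4H replicate 1 or without 4H replicate 2, each of which left 0 regions. The limma fit restricted to the 616 regions with 1 peak in every list also called 0, with 15 at a higher and 25 at a lower coordinate in clone 9C at an unadjusted p under 0.05. That fit held chr2R:4622651-4623641 but could not call chr2R:19673840-19675651, where 4H replicate 2 had 2 peaks.

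Among the 616 regions with 1 peak in every list, 416 had replicate summits within 50 bp of each other in both clones, and in 15 of these (3.61%) the clone means lay over 50 bp apart. The largest distance was 137.5 bp, at chr3R:20173643-20173990, with summits at 20173886 and 20173844 in clone 9C and at 20173705 and 20173750 in clone 4H. At chrX:11858297-11858619 the distance was 134 bp and at chrX:20282852-20283280 it was 127.5 bp, both with 9C summits at the higher coordinate. At chr3R:26275846-26276210 it was 125 bp, with 9C summits at the lower coordinate. These 4 sites were weak, with 44 to 100 summit reads in any library.

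The number of peaks in a shared region seldom followed the clone. More than 1 peak was found in 78 and 84 regions of clone 9C and in 66 and 63 of clone 4H. Both 9C lists had more peaks than either 4H list in 11 regions (1.4%), and both 4H lists had more than either 9C list in 6 (0.761%). The replicates differed in 100 regions in clone 9C and in 83 in clone 4H. With 1 list for a clone, the counts of regions with more peaks in 9C and in 4H were 36 and 8 without 9C replicate 1, and 32 and 7 without 9C replicate 2. They were 20 and 29 without 4H replicate 1, and 10 and 39 without 4H replicate 2. The clone left with 1 list had the higher count each time.

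At chr2L:3486316-3488029, chr2L:4805234-4807525 and chr3R:4781882-4784146 each 9C list had 2 peaks and each 4H list 1. Their summit reads were alike, for example 274 and 276 in clone 9C and 270 and 273 in clone 4H at chr2L:3486316-3488029. At chrX:15048328-15050347 and chr3L:4305865-4309792 each 9C list had 1 peak and each 4H list 2. At chr3R:6003281-6006914 each 9C list had 1 peak, and the 4H lists had 2 and 3. Its summits lay at 6005419 and 6005421 in clone 9C and at 6005420 and 6005420 in clone 4H, so that the strongest point was the same while the split differed.

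A few shared sites held more summit reads in clone 9C. Reads at the summit were over 1.5 times higher in both 9C libraries than in either 4H library in 4 regions (0.508%) and over 1.5 times higher in both 4H libraries in 0 (0%). The replicates differed by that much in 0 regions in clone 9C and in 3 in clone 4H. At 1.3 times the counts were 24 (3.05%) and 1 (0.127%), while replicates differed in 15 regions in clone 9C and in 42 in clone 4H. The median log2 difference over all 788 regions was 0.08, the folds were chosen after the values had been seen, and depth was not given. The count at 1.5 times was 11 without 9C replicate 1, 6 without 9C replicate 2, 10 without 4H replicate 1 and 19 without 4H replicate 2.

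The strongest of these 4 sites by mean −log10 q was chr3L:11918079-11918955, with 194 and 206 summit reads in clone 9C and 89 and 98 in clone 4H. Its width was 828 and 763 bp in clone 9C and 465 and 476 bp in clone 4H. In the caller's scaled units its background was 6.20 and 7.80 in clone 9C and 6.54 and 5.55 in clone 4H. The summit reads and widths of the clones did not overlap here, while the background did. At chr2L:4585686-4586274 summit reads were 187 and 182 in clone 9C and 84 and 120 in clone 4H. At chr3L:4166345-4167030 they were 193 and 206 in clone 9C and 93 and 110 in clone 4H. At chr3L:3241188-3241609 they were 114 and 118 in clone 9C and 61 and 63 in clone 4H. At this last site the background moved as well, with 14.6 and 16.5 scaled units in clone 9C and 9.03 and 8.70 in clone 4H. The authors' fold there was 3.05 and 2.76 in clone 9C and 2.73 and 2.93 in clone 4H. The 1 region with fewer reads in clone 9C at 1.3 times was chr2R:7285663-7286246, with 144 and 150 in clone 9C and 198 and 217 in clone 4H. It was also narrower in clone 9C, at 375 and 331 bp, against 459 and 584 bp in clone 4H.

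A limma fit on log2 summit reads without centring called 0 of the 788 regions as higher in 9C (0%) and 0 as lower (0%), with 156 and 3 at an unadjusted p under 0.05. This fit was 1 of 16 versions, all made after the values had been seen, and the number of regions called in either direction lay between 0 and 500 across them. No call on single regions is therefore drawn from these fits.

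**Figure D4:**
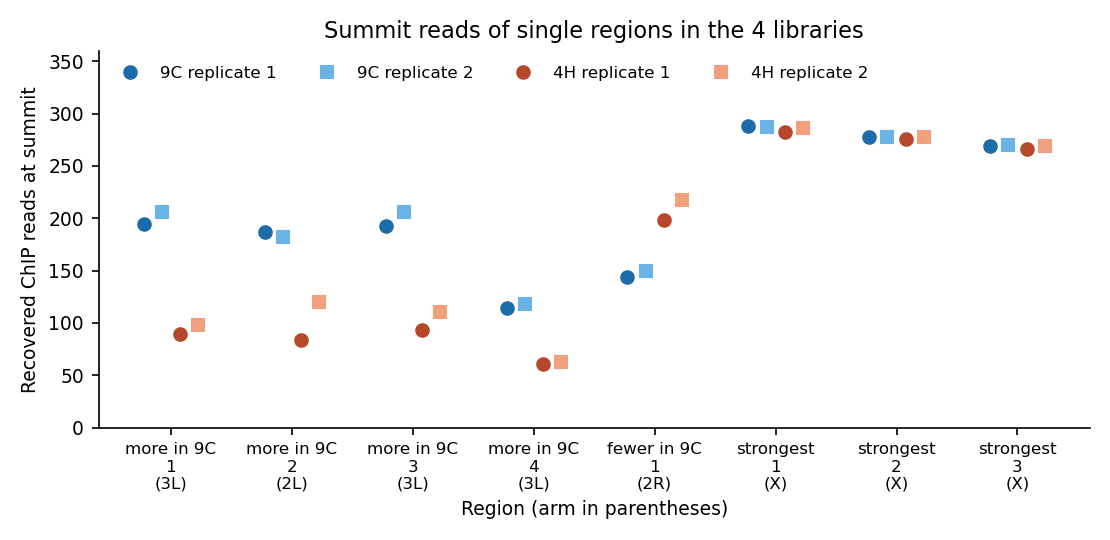
Recovered ChIP reads at the summit (vertical axis) in the 4 libraries, for the 4 regions over 1.5 times higher in clone 9C, the 1 region over 1.3 times lower in clone 9C and the 3 regions with the best mean rank of −log10 q (labelled strongest). In the first 4 regions both 9C libraries lie above both 4H libraries, and the best ranked regions lie between 266 and 288 in every library.

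The background estimate under shared peaks differed between clones in stretches of the autosomes, a comparison chosen after background by arm and by window had been looked at. Each library's log2 background was set relative to its own mean over autosomal shared regions and averaged in 2-Mb windows with 5 or more regions, and limma called 5 of 45 windows (11.1%) at an adjusted p of 0.05. On 2L, from 0 to 2 Mb, it was −0.10 and −0.10 in clone 9C and 0.35 and 0.31 in clone 4H. The difference was −0.43 (SE 0.07, limma adjusted p = 1.03e-06), and 1 of the 11 regions there was higher in 9C. The SE was the same in all 45 windows, so SE and p rest on a spread pooled over windows and not on that of 1 window. On 3L, from 2 to 4 Mb, the relative background was 0.37 and 0.36 in clone 9C and −0.08 and 0.04 in clone 4H, a difference of 0.38, with 20 of 22 regions higher in 9C. On 3L, from 16 to 18 Mb, it was 0.51 and 0.56 in clone 9C and 0.17 and 0.15 in clone 4H, a difference of 0.38, with 14 of 14 regions higher in 9C. In these 3 windows the clones did not overlap, and each stayed called whichever library was left out (highest limma adjusted p 0.00105, 0.00996 and 0.00209). A limma fit with the replicate number as a block called 0 of the 45 windows (lowest adjusted p 0.0798), so the calls rest on the fit without it. Whether the replicate numbers pair the libraries in background was not tested.

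On 3R, from 0 to 2 Mb, the difference was −0.25 over 5 regions, and on 3L, from 18 to 20 Mb, it was 0.21 over 6 regions. These 2 calls did not last when libraries were left out (highest limma adjusted p 0.112 and 0.285), and 3 windows were called without 9C replicate 1 and 3 without 4H replicate 2. The 40 windows not called differed by −0.15 to 0.17. Summit reads, centred in the same way, differed by −0.07 in the 2L window, by 0.08 in the 3L window from 2 to 4 Mb and by 0.02 in the one from 16 to 18 Mb. The 3L window from 2 to 4 Mb holds chr3L:3241188-3241609, described above. No source used here names the control that the caller used, so a source of this background was not tested. The X was left out, because 59.1% to 68.1% of its peaks sat at the caller's lowest background.

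**Figure D5:**
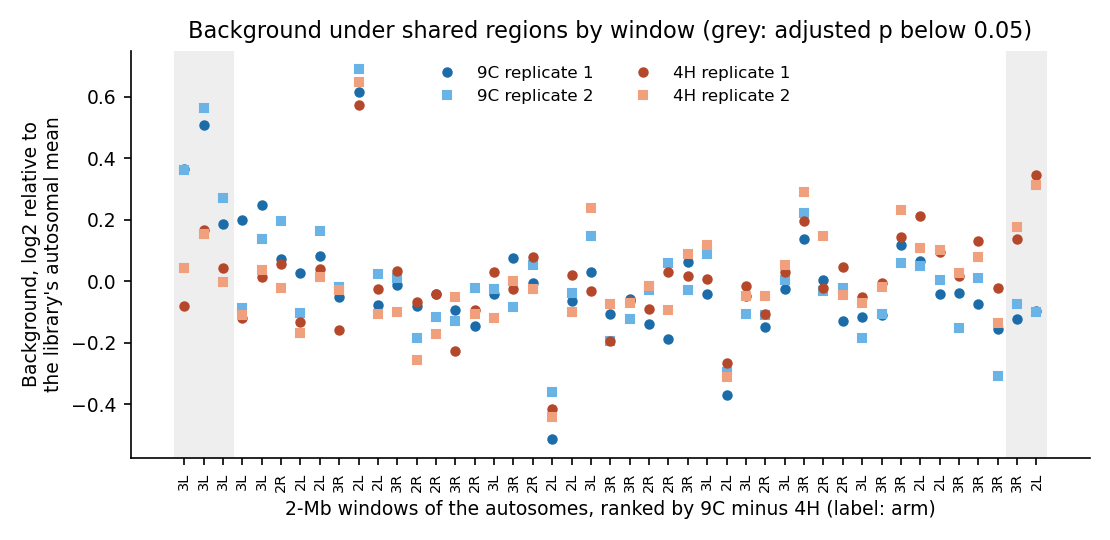
Mean log2 background under shared regions, relative to each library's autosomal mean (vertical axis), in the 45 autosomal windows of 2 Mb ranked by 9C minus 4H (horizontal axis, labelled by arm). Grey marks the 5 windows called at an adjusted p of 0.05, and in these both 9C points lie on one side of both 4H points.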

How the data were processed

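Peak lists of 4 anti-FLAG ChIP libraries were compared, 2 replicates of Saft clone 9C and 2 of clone 4H. The 2 Phaser clone 8D lists were used for overlap alone, and the 6 input samples were not analysed here. Replicates are biological per the labels' wording for the series, and p-values measure the spread between 2 libraries a clone. Each limma fit drew this spread towards a value common to its regions or windows. In the fit on background windows the spread was wholly pooled over all windows. MACS2 2.1.2.1, Bowtie 1.2.2, bedtools 2.27.1, Trim Galore 0.6.2 and build dm3 are listed in the submitters' processing notes, with no settings. The authors deposited 1 narrowPeak list per library, with a fold enrichment (a linear ratio), −log10 p and −log10 q per peak, which were used to describe, rank and filter within a list. Absence of a peak means that it did not pass the caller's limit. No source used here gives depth, and intervals cover counting error only.

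Peaks overlapping by 1 bp or more were merged across lists. The peak of highest −log10 q stood for a list. Single values per library were compared by exact permutation, and log2 width, summit position, background and summit reads by limma 3.58.1 in R 4.3.3, with Benjamini-Hochberg adjustment over all regions or windows and no centring unless stated. Reads and background at summits were worked back from the deposited fold and −log10 p, on the basis that the caller adds 1 to both before the ratio and uses a Poisson tail. To give reads, the caller's summit value was divided by a factor fitted per library, 0.402 to 0.435 in the Saft lists. Background was left in the caller's scaled units, so summit reads over background do not give the fold. Reads were whole to within 0.03 in 100% of peaks. Scripts were tested on simulated data. Other steps used pandas 2.3.3, scipy 1.17.1, numpy 2.4.6 and matplotlib 3.10.9 under Python 3.11.15.

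Named regions were the 5 of highest mean −log10 q in 9C-only and in 4H-only regions, and regions among the 5 of smallest limma p for width each way. Further ones were the 4 largest summit distances, the 3 of highest mean −log10 q with more peaks in each clone, and the 3 best ranked shared regions. Regions named for called summits, summit reads or chromosome 4 were picked after their values were seen, as were the strength bounds, the folds of reads, every fit on reads and the windows. Members and lists were chosen with earlier results of these data known. The replicate numbers showed no pairing of the libraries in width or presence: deviations of replicate 1 from replicate 2 in the clones correlated at −0.03 for width and 0.03 for presence. With 1 such deviation per clone, a shared batch was not tested by this. No dm3 genome or annotation was used here, so regions carry no gene names or sequences.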

Additional observations from a re-analysis of the deposited data

Results flagged for a closer look

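Peaks also lay outside the main arms, on heterochromatic scaffolds that the comparison did not use. Replicates 1 and 2 of clone 9C held 6 and 8 such peaks, and replicate 1 of clone 4H held 5. Replicate 2 of clone 4H held 3. The only one of these regions with a peak in all 4 lists was chr2LHet:32630-32971, where the authors' fold lay between 2.30 and 3.35.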

How the results depend on the processing

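Of 176 alternatives over 17 results, 115 stayed within the limits set for them and 61 moved. Each count was judged alone, and between the clones the larger count turned in several settings: without 4H replicate 1 the 9C-only and 4H-only regions were 180 and 187, regions with more peaks in 9C and in 4H were 20 and 29 without 4H replicate 1, 10 and 39 without 4H replicate 2 and 3 and 4 with the 1000 strongest peaks, and the centred reads fit called 37 higher and 463 lower without 4H replicate 2. With −log10 q of 10 or more, 14 regions were 9C-only and 2 were 4H-only, 79.4% were in all 4 lists, 4 summits were called, 0 and 0 regions had more peaks in 9C and in 4H, and the between minus within summit distance was 0 bp. With the 1000 strongest peaks of each list the 9C-only and 4H-only regions were 48 and 29, those of all 4 lists 50.2%, the ratio of peak numbers 1 by construction. With an overlap of 50% or more of both peaks, 32.6% were in all 4 lists, and 0 and 0 regions had more peaks in 9C and in 4H. Leaving out each library in turn gave 180 to 381 9C-only and 56 to 187 4H-only regions, 44.2% to 47.5% in all remaining lists, 10 to 36 regions with more peaks in 9C and 7 to 39 with more in 4H, 0 to 2 summits called, 3 to 5 windows called, and 6 to 19 regions with 1.5 times more reads in 9C. Fewer lists have to be passed there, by construction. At 1.3 times the read counts were 24 for 9C and 1 for 4H, and at 2 times 0 for 9C. The limma fits on reads called 0 regions in 7 of 16 versions, among them every uncentred fit over all 788 regions. Centring each library on its median gave 3 higher and 1 lower in 9C, with a robust variance 2 and 1, and restriction to the 396 regions of mean −log10 q under 50 gave 35 and 1 uncentred and 11 and 8 centred. Leaving out libraries gave 0 to 37 higher and 0 to 463 lower, the widest range when centred (28 and 8 without 4H replicate 1). The cause was not tested. With the replicate number as a block, the ratios of peak number and median width were 1.17 and 1.197 (exact permutation p = 0.5 each, the smallest p that 2 pairs allow), 0 widths, 0 summits and 0 background windows were called, and the reads called 0 and 0 uncentred and 6 and 3 centred. With 1 peak in every list 0 summits were called, and chr2R:19673840-19675651 was not in that fit. Depth is unknown, and summits near 290 reads cannot show differences in strength.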
